A study of Homo sapiens with 9 samples.

Results

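The nuclear genome encodes most of the protein subunits of the respiratory chain and of ATP synthase, and the 91 genes described here are those subunits. They were chosen by symbol alone: protein-coding nuclear genes of the NDUFA, NDUFB, NDUFC, NDUFS and NDUFV series, the SDH subunits, the UQCR series and CYC1, the structural COX genes and the ATP5 series, under current or former symbols. They are 91 of 58381 genes counted. The rule itself uses no measured value, although it was chosen with earlier results of these data known. Complex I (NADH dehydrogenase) holds 37 of them, complex II (succinate dehydrogenase) 4, complex III (cytochrome bc1) 10, complex IV (cytochrome c oxidase) 19 and complex V (ATP synthase) 21. NDUFA4 and NDUFA4L2 were placed with complex IV, the complex in which NDUFA4 is found. DMAC2L was included through its former symbol ATP5S and is not itself a subunit.

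Complexes I to IV pass electrons from NADH and succinate to oxygen and, complex II excepted, pump protons across the inner mitochondrial membrane, and complex V uses the returning protons to make ATP. Their subunits come from nuclear genes, whose proteins are imported, and from a small set of genes on mitochondrial DNA, so that each complex apart from complex II is assembled from both. Nuclear subunit genes are known for promoters with sites for NRF1, GABP and YY1, factors that serve many genes of this system.

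The cells were EGI-1, an established human cholangiocarcinoma line, with a tetracycline-inducible short hairpin RNA. The groups were GFPsh (a control hairpin), FOSL1sh3 and FOSL1sh10 (2 hairpins that target FOSL1, the gene of the AP-1 protein FRA-1), with 3 libraries each. All groups, controls included, received doxycycline at 2 µg per ml for 4 days and were seeded for 24 hours before RNA was taken. The labels do not say whether a group was 1 clone or a pool of cells, nor whether each replicate was a culture of its own. The spread behind every p-value is therefore that of these libraries and may be technical.

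Library totals lay between 6893026 and 10604251 counts and overlapped between groups. FOSL1 itself fell by 1.98 (FOSL1sh3) and 1.94 (FOSL1sh10) on the log2 scale against GFPsh (adjusted p = 1.2e-05 and 1.03e-05, edgeR quasi-likelihood test). All 8 biliary epithelial markers were above 1 CPM, a count expressed relative to the size of its library, with a summed level of 10946 to 13589 CPM over the 9 libraries. Of the markers of other cells, 1 of 5 for leukocytes, 1 of 7 for fibroblasts and endothelium, 1 of 5 for hepatocytes and 1 of 5 for muscle were above 1 CPM on average, and CD3E, COL3A1, PDGFRB, CYP3A4 and MYH7 had no count in any library. The summed muscle list, nearly all of it MB, was at 8.38 to 13.3 CPM in GFPsh, 21.5 to 25.5 CPM in FOSL1sh3 and 26.5 to 31.5 CPM in FOSL1sh10. The hepatocyte list, nearly all SERPINA1, was at 6.19 to 7.31, 8.08 to 11.6 and 13.8 to 17.6 CPM in the same order. Leukocyte markers were at 3.04 to 4.63, 5.34 to 6.92 and 5.28 to 8.97 CPM, and those of fibroblasts and endothelium at 2.93 to 4.74, 4.31 to 8.02 and 8.13 to 9.58 CPM. The part of these markers in the results below was not tested.

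Of the 91 members, 83 had enough counts to be tested. The 8 others were COX6A2, COX7B2, COX8C, NDUFC2-KCTD14 and ATP5MF-PTCD1, which had no count in any library, and COX4I2, COX7A1 and NDUFA4L2, with 2 counts each in all. COX4I2, COX6A2, COX7A1, COX7B2, COX8C and NDUFA4L2 are tissue-specific or hypoxia-linked alternatives to COX4I1, COX6A1, COX7A2, COX7B, COX8A and NDUFA4. In these libraries COX6B2, a testis form, was the one alternative form of a complex IV subunit that passed the filter, at 1.24 to 1.98 CPM in GFPsh. Counts come from tags near the 3' end, so levels of different genes are not ranked here. CPM below are scaled by TMM, and log2 fold changes are from the same fit over all 12814 genes tested, adjusted over all of them and called at an adjusted p under 0.05.

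Few members changed. Against GFPsh, 3 of 83 were called in FOSL1sh3 (3.61%), where 10.9% of all genes tested were called. In FOSL1sh10 2 of 83 were called (2.41%), where 5.28% of all genes were. For the mean of both hairpins 2 were called, with 6.22% of all genes. Between FOSL1sh3 and FOSL1sh10 4 were called, all higher in FOSL1sh3, which is 4.82% of members against 12.7% of all genes. In this fit the members' share was below that of all genes in each comparison, but the order turned with some settings. It turned most with no filter on low counts, where 27513 genes were tested and 11 of 86 members were called in FOSL1sh10 (12.8%, 9 of them lower) against 3.30% of all genes, and 14 between the hairpins (16.3%, 13 of them higher in FOSL1sh3) against 6.41%. With only the groups compared in the fit 10 members were called in FOSL1sh10 (12.0%, 8 of them lower) against 8.98% of all genes, and after a GC content and length correction 13 were called between the hairpins (15.7%, all higher in FOSL1sh3) against 12.0% of all genes. With library totals in place of TMM, 2 were higher and 1 lower in FOSL1sh10 (3.61%, all genes 6.55%). Between the hairpins 2 were then higher and 2 lower (4.82%, all genes 17.1%). Single libraries also moved the counts. In FOSL1sh3 1 member (1.20%) was called without GFPsh replicate 1 (all genes 4.51%) or FOSL1sh3 replicate 3 (all genes 5.73%). With FOSL1sh3 replicate 2 left out, 5 (6.02%) were called there (all genes 13.6%). In FOSL1sh10 1 (1.20%) was called without GFPsh replicate 3 (all genes 3.16%) and 6 (7.23%) without FOSL1sh3 replicate 3 (all genes 6.96%). For the mean 4 (4.82%) were called without FOSL1sh3 replicate 1 (all genes 6.20%) or 2 (all genes 7.55%). Between the hairpins 9 (10.8%) were called without FOSL1sh3 replicate 2 (all genes 14.5%) and 1 (1.20%) without FOSL1sh10 replicate 2 (all genes 5.37%). There were 7 (8.43%) without FOSL1sh3 replicate 3 (all genes 7.96%) or FOSL1sh10 replicate 1 (all genes 8.91%). The called genes were ATP5MC1, COX7B and ATP5F1C in FOSL1sh3, COX7A2L and ATP5MC1 in FOSL1sh10, and COX7A2L, COX6C, COX7C and UQCRC1 between the hairpins. Those called for the mean were COX7A2L and ATP5MC1, of which COX7A2L was not called in FOSL1sh3. Comparisons with GFPsh share the control libraries and those with a hairpin share its libraries, so none is independent of the others.

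**Figure D1:**
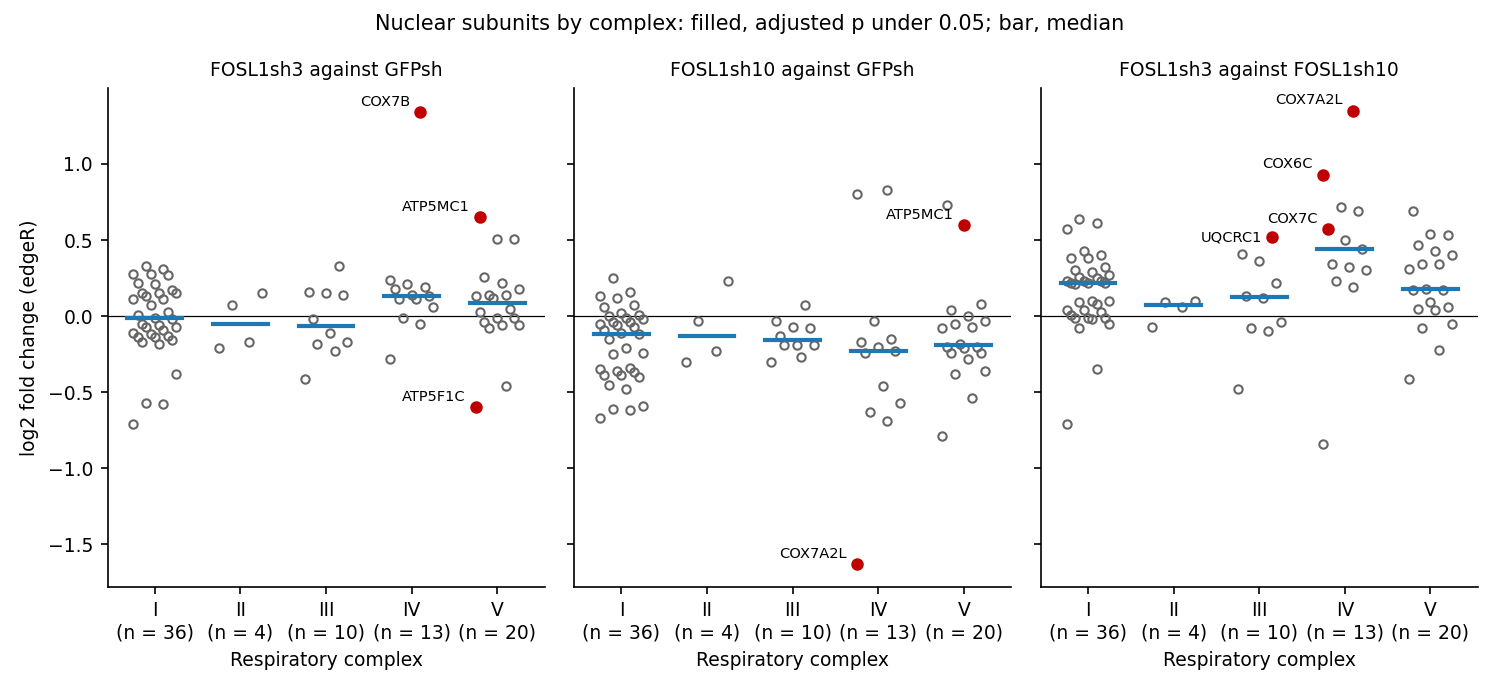
Each point is 1 of the 83 tested members, placed by complex (x axis) and fitted log2 fold change (y axis) in 3 comparisons; filled points had an adjusted p under 0.05 (edgeR) and bars are medians. COX7A2L, at -1.63 in FOSL1sh10 and 1.35 between the hairpins, lies farthest from 0 in those panels, and the complex IV median is -0.23 in FOSL1sh10 and 0.44 between the hairpins.

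COX7A2L had the largest fitted fold change of any tested member in FOSL1sh10 and between the hairpins. This gene, at chr2:42333546-42425088 (hg38, minus strand), encodes a COX7A-related protein that joins complexes III and IV into supercomplexes. It was at 195, 182 and 176 CPM in GFPsh replicates 1, 2 and 3, at 160, 182 and 114 CPM in FOSL1sh3, and at 68.8, 56.5 and 53.6 CPM in FOSL1sh10. All FOSL1sh10 libraries lay below every other library, while FOSL1sh3 overlapped with GFPsh. COX7A2L fell by 1.63 on the log2 scale in FOSL1sh10 (SE 0.167, adjusted p = 1.03e-05, edgeR quasi-likelihood test), which left 32.3% of the control level. In FOSL1sh3 the log2 fold change was -0.28 (SE 0.161, adjusted p = 0.28, edgeR), and the hairpins differed by 1.35 (SE 0.166, adjusted p = 4.83e-05, edgeR). The call in FOSL1sh10 and that between the hairpins held under all 16 alternatives for each, with log2 fold changes of -1.74 to -1.53 and 1.18 to 1.52. FOSL1 itself was at 62.5 ± 15.2 CPM in FOSL1sh3 and 64.6 ± 6.97 CPM in FOSL1sh10 (SD, n = 3 each; log2 difference -0.05, SE 0.195).

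ATP5MC1 was the one member called with each hairpin. It lies at chr17:48892765-48895871 (hg38, plus strand) and encodes the c subunit that forms the rotating ring of ATP synthase. It was at 387, 394 and 351 CPM in GFPsh, at 681, 555 and 546 CPM in FOSL1sh3, and at 637, 505 and 580 CPM in FOSL1sh10. Every hairpin library lay above every control library, and the hairpin groups overlapped with each other. ATP5MC1 rose by 0.65 on the log2 scale in FOSL1sh3 (SE 0.142, adjusted p = 0.00781, edgeR) and by 0.60 in FOSL1sh10 (SE 0.142, adjusted p = 0.0161, edgeR), to 157% and 152% of control. The hairpins differed by 0.05 (SE 0.141, adjusted p = 0.855, edgeR). The FOSL1sh3 call held under all 16 alternatives, while the FOSL1sh10 call was lost on leaving out GFPsh replicate 1 or 3 or FOSL1sh10 replicate 1 or 3, with adjusted p of 0.0631, 0.0769, 0.0797 and 0.0668 and log2 fold changes of 0.53 to 0.62. ATP5MC1 has 8 named pseudogenes, which together took 220 counts beside its own 38889.

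The c subunit has 3 genes whose mature proteins are the same and whose import sequences differ. ATP5MC2 was at 334, 327 and 244 CPM in GFPsh, 387, 301 and 338 CPM in FOSL1sh3 and 276, 255 and 249 CPM in FOSL1sh10. Its log2 fold change was 0.18 in FOSL1sh3 (SE 0.149, adjusted p = 0.47, edgeR) and -0.21 in FOSL1sh10 (SE 0.149, adjusted p = 0.478). ATP5MC3 was at 1760, 1713 and 2017 CPM in GFPsh, 1778, 1593 and 1910 CPM in FOSL1sh3 and 1498, 1446 and 1325 CPM in FOSL1sh10, with a log2 fold change of -0.06 in FOSL1sh3 (SE 0.137, adjusted p = 0.833, edgeR) and -0.36 in FOSL1sh10 (SE 0.137, adjusted p = 0.14). All FOSL1sh10 libraries of ATP5MC3 were below all controls, the opposite side from ATP5MC1, without passing the test. The difference in response between the 3 genes was not tested.

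**Figure D2:**
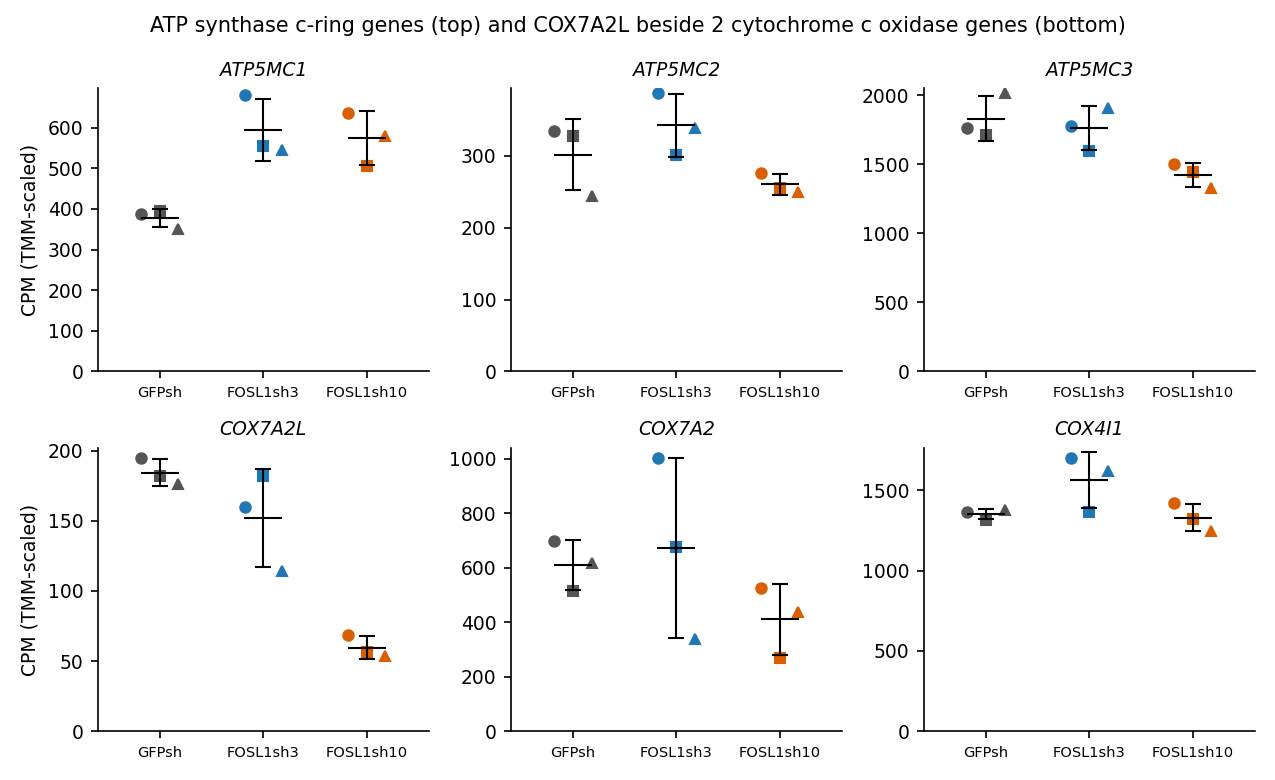
CPM (y axis, TMM-scaled, from 0) in each library by group (x axis); circles, squares and triangles are replicates 1, 2 and 3, and black bars are mean ± SD (n = 3). ATP5MC1 is above all controls in all 6 hairpin libraries, and ATP5MC2 and ATP5MC3 are not. COX7A2L is at 53.6 to 68.8 CPM in FOSL1sh10, below all controls. In FOSL1sh10 COX7A2 and COX4I1 overlap with the controls, while COX6C, COX7C and NDUFA4, not drawn here, lie below all of them.

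Promoter sequence was read for the members in the RefSeq promoter table (GRCh38.p14, the same build as the counts), which matched 72 of 91 members and 67 of the 83 tested. Each window runs from 250 bases before the annotated start to 50 after it, and 1 window was taken per member. The windows of all genes were distinct by position, without a limit to 1 per gene or to tested genes. Motifs were searched on both strands as exact letters. NRF1's core, CGCATGCG, was in 10 of 67 member windows (14.9%) and in 2.00% of 34943 windows of all genes. The GABP (ETS) site CCGGAAGT was in 10 of 67 (14.9%) against 4.11%, and YY1's core AAGATGGC in 11 of 67 (16.4%) against 2.89%. AP-1's site TGACTCA was in 0 of 67 windows against 4.96%, which says only that these 7 letters were absent from these windows. A match is a string of letters and not a measured binding site.

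Of the called members, 6 have a window. The stretch before the start of ATP5MC1, the member that rose with both hairpins, is shown for its bases outside annotated exons (chr17:48892537-48892764, plus strand). In capitals is its match to the cyclic AMP response element TGACGTCA, a palindrome; the window holds none of the other 4 motifs. The element was added after this sequence had been read and is in 5 of 67 member windows (7.46%) and 1.84% of all windows.
ATP5MC1: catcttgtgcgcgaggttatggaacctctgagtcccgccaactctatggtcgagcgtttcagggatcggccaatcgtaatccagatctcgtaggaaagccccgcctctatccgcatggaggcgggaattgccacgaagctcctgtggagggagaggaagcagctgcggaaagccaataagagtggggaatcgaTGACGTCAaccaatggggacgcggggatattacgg

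For comparison, 30-base stretches are given around the NRF1 core in ATP5MC2 (chr12:53676106-53676135, minus strand) and ATP5F1C (chr10:7788145-7788174, plus strand), and around the YY1 core in UQCRC1 (chr3:48609605-48609634, minus strand), with the motif in capitals. They are shown as examples of the motifs found more often in member windows than in all windows. SDHD holds the NRF1 core (chr11:112086753-112086782, plus strand) and, in reverse complement, the GABP site (chr11:112086784-112086813, plus strand).
ATP5MC2: ggcccgggtcaCGCATGCGctgagccttcc
ATP5F1C: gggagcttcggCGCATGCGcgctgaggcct
UQCRC1: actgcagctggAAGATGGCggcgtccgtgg
SDHD, NRF1 core: agctgtgtttgCGCATGCGcgacgggtgtg
SDHD, GABP site: accgcctctcgACTTCCGGttcacccagca

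Complex I had no called member in any comparison of the fit reported. Its catalytic core, which carries the flavin and iron-sulfur clusters from NADH to ubiquinone, includes the nuclear-encoded NDUFV1, NDUFV2, NDUFS1, NDUFS3, NDUFS7 and NDUFS8. Log2 fold changes of these 6 lay between -0.58 and 0.28 in FOSL1sh3 and between -0.05 and 0.13 in FOSL1sh10. NDUFS1, the largest of them, was at 69.1, 63.8 and 77.4 CPM in GFPsh, 64.9, 75.3 and 62.1 CPM in FOSL1sh3, and 69.2, 64.0 and 70.2 CPM in FOSL1sh10. The groups overlapped for all 6 against GFPsh. NDUFV2 was at only 1.38 to 2.48 CPM in the controls, and 71.4% of its last 500 exon bases lie in exons of another gene, so its value is uncertain.

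Another 29 tested members of complex I are accessory subunits around that core. In FOSL1sh10 8 of them had all libraries below all controls, as did 13.0% of all genes tested: NDUFA1, NDUFA3, NDUFA5, NDUFA6, NDUFB1, NDUFB5, NDUFS4 and NDUFV3. NDUFA1, a small membrane-arm subunit, was at 181, 223 and 203 CPM in GFPsh, 248, 206 and 148 CPM in FOSL1sh3 and 162, 90.8 and 143 CPM in FOSL1sh10 (log2 fold change -0.62, SE 0.2, adjusted p = 0.0825 in FOSL1sh10, edgeR). NDUFB1 was at 84.6, 97.3 and 91.8 CPM in GFPsh and at 74.0, 42.4 and 65.7 CPM in FOSL1sh10 (log2 fold change -0.59, SE 0.19, adjusted p = 0.0813, edgeR). The second library was the lowest of FOSL1sh10 for both genes. NDUFC1 had the lowest unadjusted p of complex I in FOSL1sh10 (log2 fold change -0.67, SE 0.214, adjusted p = 0.08, edgeR), and its groups overlapped. These 3 genes were called in FOSL1sh10 under 5 (NDUFA1), 3 (NDUFB1) and 5 (NDUFC1) of 16 alternatives, among them the fit of only the groups compared (adjusted p = 0.0276, 0.0292 and 0.0273, edgeR). NDUFB10 was the exception, with all libraries of both hairpins above all controls (401, 394 and 345 CPM in GFPsh, 463, 412 and 409 CPM in FOSL1sh3, 493, 439 and 423 CPM in FOSL1sh10). Its log2 fold changes of 0.17 and 0.25 did not pass the test (adjusted p = 0.439 and 0.326, edgeR).

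In FOSL1sh3, NDUFA5, NDUFS5 and NDUFS3 had the lowest unadjusted p of complex I. NDUFA5 was at 16.0, 13.8 and 18.2 CPM in GFPsh and at 13.2, 10.4 and 8.53 CPM in FOSL1sh3 (log2 fold change -0.57, SE 0.229, adjusted p = 0.116, edgeR), and the log2 fold change was -0.23 (adjusted p = 0.59, edgeR) after the GC content and length correction. NDUFS5 was at 384, 404 and 407 CPM in GFPsh and at 488, 433 and 576 CPM in FOSL1sh3 (log2 fold change 0.33, SE 0.152, adjusted p = 0.177, edgeR). NDUFA5 was below all controls and NDUFS5 above them, so complex I genes did not lean one way with this hairpin. Its median log2 fold change was -0.02 in FOSL1sh3 and -0.11 in FOSL1sh10. NDUFAB1, the acyl carrier protein of complex I, has a symbol outside the pattern used and was at 663 ± 80.2 CPM in the controls, 533 ± 67.5 CPM with FOSL1sh3 and 540 ± 105 CPM with FOSL1sh10 (SD, n = 3 each), without a call.

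Complex II is the one respiratory complex encoded wholly in the nucleus. SDHA, the flavoprotein that oxidizes succinate, was at 192, 181 and 182 CPM in GFPsh, 204, 181 and 195 CPM in FOSL1sh3 and 167, 173 and 202 CPM in FOSL1sh10, and these ranges overlapped. SDHB, the iron-sulfur subunit, was at 457, 407 and 432 CPM in GFPsh and at 357, 382 and 369 CPM in FOSL1sh10, below every control library (log2 fold change -0.23, SE 0.132, adjusted p = 0.377, edgeR). The membrane anchors SDHC and SDHD lay on opposite sides in FOSL1sh10, all libraries of SDHC above the controls (log2 fold change 0.23, SE 0.158) and all of SDHD below (log2 fold change -0.30, SE 0.166). None of the 4 was called in any comparison of the fit reported. Without FOSL1sh3 replicate 2, SDHD was called in FOSL1sh3 (log2 fold change -0.46, adjusted p = 0.0477, edgeR). The signs of 3 of them turned with some settings in comparisons that involve FOSL1sh3.

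Complex III had a single call. UQCRC1, a core protein of the complex that faces the matrix (chr3:48599002-48610976, minus strand), was at 86.2, 99.3 and 76.3 CPM in GFPsh, 115, 101 and 112 CPM in FOSL1sh3 and 74.9, 68.0 and 85.8 CPM in FOSL1sh10. All FOSL1sh3 libraries were above all others, and FOSL1sh10 overlapped with GFPsh. UQCRC1 was higher in FOSL1sh3 than in FOSL1sh10 by 0.52 (SE 0.143, adjusted p = 0.0231, edgeR), with log2 fold changes against GFPsh of 0.33 (adjusted p = 0.146) and -0.19 (adjusted p = 0.51). The call was lost without FOSL1sh3 replicate 1 (adjusted p = 0.0631), FOSL1sh10 replicate 1 (0.0717) or FOSL1sh10 replicate 2 (0.119), and with library totals in place of TMM (log2 difference 0.35, adjusted p = 0.102, edgeR). Its partner UQCRC2 was at 268, 239 and 243 CPM in GFPsh, 224, 241 and 201 CPM in FOSL1sh3 and 195, 205 and 210 CPM in FOSL1sh10 (log2 fold change -0.30 in FOSL1sh10, SE 0.129, adjusted p = 0.209, edgeR). All FOSL1sh10 libraries of UQCRC2 were below all controls.

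UQCRFS1, the Rieske iron-sulfur protein, was at 194, 220 and 120 CPM in GFPsh, 185, 110 and 105 CPM in FOSL1sh3 and 192, 200 and 166 CPM in FOSL1sh10, with wide overlap. CYC1, cytochrome c1, was at 703, 797 and 511 CPM in GFPsh and between 523 and 727 CPM in all hairpin libraries. UQCRH, the hinge protein, was at 1238, 1277 and 1491 CPM in GFPsh, 1503, 1386 and 1512 CPM in FOSL1sh3 and 1300, 939 and 1077 CPM in FOSL1sh10, and the hairpin groups did not overlap (log2 difference 0.41, SE 0.147, adjusted p = 0.0756, edgeR). UQCRHL is a near copy of UQCRH, and its 13.5 to 34.5 CPM may include reads of either gene.

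Complex IV had the highest median difference between the hairpins of the 5 complexes, which was not tested against the others. Its 13 tested members had a median log2 fold change of 0.13 in FOSL1sh3, -0.23 in FOSL1sh10 and 0.44 between the hairpins, where the medians over all 12814 genes were 0.01, 0.00 and 0.00. Of the 13, 12 were higher in FOSL1sh3 than in FOSL1sh10 in sign, leaving 7.69% negative where 49.9% of all genes were. Called were 3, COX7A2L, COX6C and COX7C, where 12.7% of all genes were called. Complex IV genes together made up 0.711% ± 0.0251 of the library total in GFPsh, against 0.748% ± 0.0547 with FOSL1sh3 and 0.628% ± 0.0639 with FOSL1sh10 (SD, n = 3 each). The per-library shares were 0.733%, 0.717% and 0.684% in GFPsh, 0.782%, 0.777% and 0.685% in FOSL1sh3, and 0.701%, 0.585% and 0.597% in FOSL1sh10. The first FOSL1sh10 library lay among the other groups and the other 2 lay below all of them.

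COX6C and COX7C encode small membrane subunits of complex IV. COX6C (chr8:99873200-99894062, minus strand) was at 184, 189 and 260 CPM in GFPsh, 307, 259 and 180 CPM in FOSL1sh3 and 174, 82.8 and 135 CPM in FOSL1sh10. Every FOSL1sh10 library was the lower, although its highest lay close to the lowest of FOSL1sh3. COX6C was higher in FOSL1sh3 than in FOSL1sh10 by 0.93 (SE 0.229, adjusted p = 0.0129, edgeR), while against GFPsh the log2 fold changes were 0.24 (adjusted p = 0.541) and -0.69 (adjusted p = 0.0873). This call was lost without FOSL1sh3 replicate 1 (0.75, adjusted p = 0.0518) or FOSL1sh10 replicate 2 (0.70, adjusted p = 0.0702, edgeR). COX6C has 17 named pseudogenes, which took 852 counts beside its 14844, so reads may be shared.

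COX7C (chr5:86617904-86620962, plus strand) was at 708, 840 and 823 CPM in GFPsh, 869, 920 and 765 CPM in FOSL1sh3 and 669, 472 and 578 CPM in FOSL1sh10. All FOSL1sh10 libraries were below all others. The hairpins differed by 0.57 (SE 0.15, adjusted p = 0.0189, edgeR), and against GFPsh the log2 fold changes were 0.11 (adjusted p = 0.693) and -0.46 (adjusted p = 0.0824). The call was lost without FOSL1sh10 replicate 2 (adjusted p = 0.11) or 3 (0.0564) and with library totals in place of TMM (log2 difference 0.41, adjusted p = 0.0568, edgeR).

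COX7B, another small subunit (chrX:77899438-77907373, plus strand), was called in FOSL1sh3 at low counts. It had 18, 38 and 22 counts in GFPsh, 50, 35 and 104 in FOSL1sh3 and 59, 44 and 33 in FOSL1sh10, which is 2.48, 4.28 and 2.42 CPM, 5.13, 5.05 and 13.2 CPM, and 8.42, 4.98 and 3.36 CPM. The FOSL1sh3 libraries lay above all controls, the third of them far above the other 2. The log2 fold change of 1.34 (SE 0.408, adjusted p = 0.0423, edgeR) was 0.72 (adjusted p = 0.295) without FOSL1sh3 replicate 3. It was also lost without GFPsh replicate 1 (adjusted p = 0.134) or 3 (adjusted p = 0.141, edgeR).

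Among the paralogs of complex IV that were detected, COX7A2 was at 698, 513 and 618 CPM in GFPsh, 1002, 675 and 340 CPM in FOSL1sh3 and 525, 268 and 437 CPM in FOSL1sh10. The FOSL1sh3 libraries alone ran from 340 to 1002 CPM, a range that holds every control library, and its log2 fold changes of 0.14 and -0.57 had adjusted p of 0.787 and 0.275 (edgeR). COX4I1, a regulatory subunit present in most tissues, was at 1364, 1319 and 1378 CPM in GFPsh, 1704, 1366 and 1624 CPM in FOSL1sh3 and 1420, 1322 and 1249 CPM in FOSL1sh10 (log2 fold changes 0.21 and -0.03). NDUFA4 was at 387, 344 and 325 CPM in GFPsh, 484, 419 and 200 CPM in FOSL1sh3 and 260, 181 and 242 CPM in FOSL1sh10, below every control library in FOSL1sh10 (log2 fold change -0.63, SE 0.229, adjusted p = 0.125, edgeR).

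**Figure D3:**
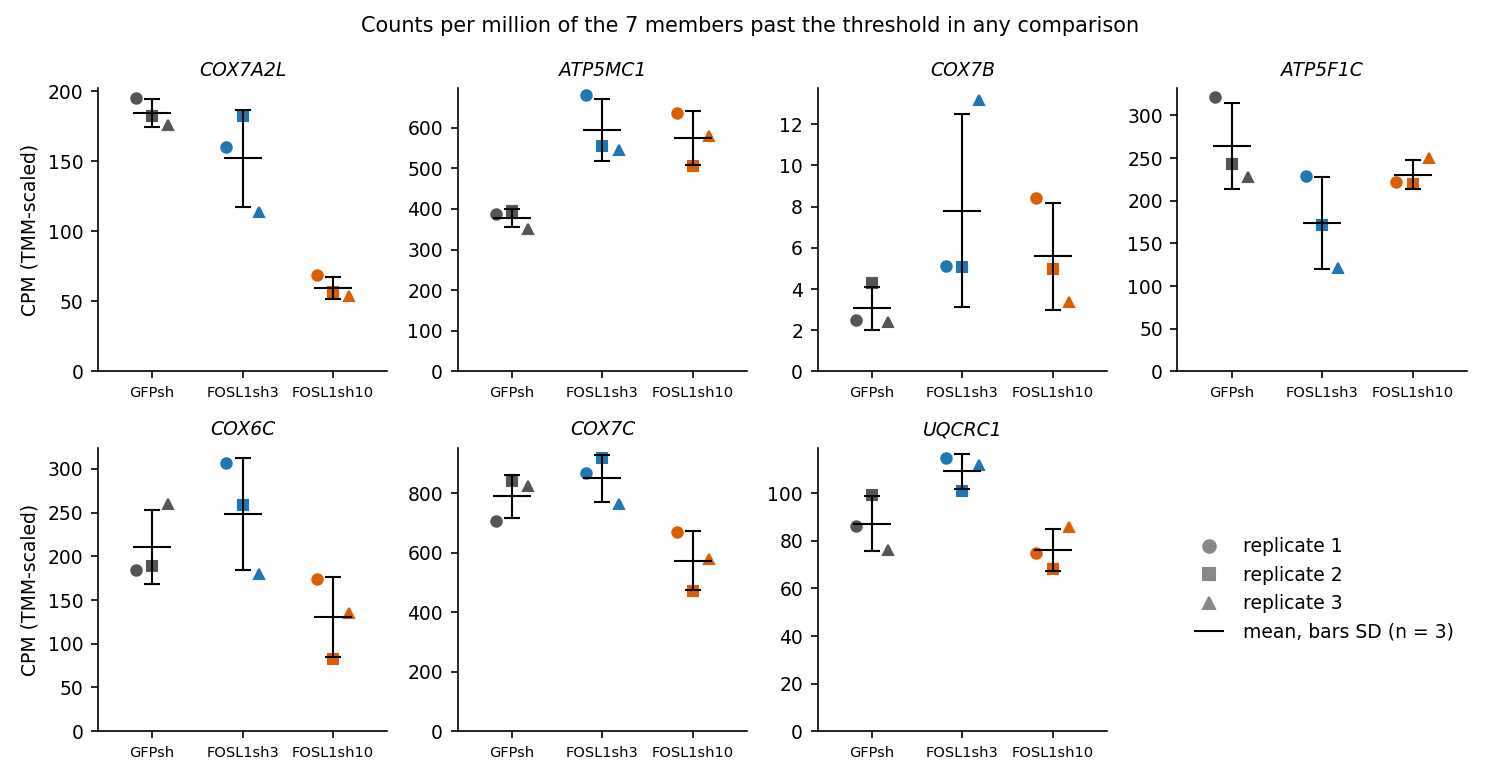
CPM (y axis, TMM-scaled, from 0) of the 7 members called in any comparison, by group (x axis); symbols are replicates 1 to 3 and black bars mean ± SD (n = 3). FOSL1sh10 is separate from the other groups for COX7A2L, COX6C and COX7C, both hairpins are above the controls for ATP5MC1, and COX7B and ATP5F1C show a wide spread within FOSL1sh3.

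In complex V, ATP5MC1 and ATP5F1C were called. ATP5F1C (chr10:7788129-7807815, plus strand) encodes the gamma subunit, the shaft that turns within the catalytic head. It was at 322, 243 and 228 CPM in GFPsh, 229, 172 and 121 CPM in FOSL1sh3 and 222, 220 and 250 CPM in FOSL1sh10. FOSL1sh3 and GFPsh overlapped at their edges. The log2 fold change of -0.60 in FOSL1sh3 (SE 0.19, adjusted p = 0.0491, edgeR) was just past the threshold and lost the call under 11 of 16 alternatives, with adjusted p of up to 0.249. Leaving out any single library other than FOSL1sh3 replicate 1 was among them, 8 libraries in all. Without GFPsh replicate 1 it was -0.42 and without FOSL1sh3 replicate 3 it was -0.40. The catalytic subunits ATP5F1A and ATP5F1B did not pass in either hairpin, with log2 fold changes of -0.06 and -0.01 in FOSL1sh3 and -0.24 and -0.07 in FOSL1sh10.

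The 4 subunits of the peripheral stalk (ATP5PB, ATP5PD, ATP5PF and ATP5PO) had log2 fold changes of -0.08 to 0.26 in FOSL1sh3 and -0.54 to 0.00 in FOSL1sh10, with no call. The 5 small membrane subunits (ATP5ME, ATP5MF, ATP5MG, ATP5MJ and ATP5MK) had 0.03 to 0.51 and -0.38 to 0.73, also with no call. ATP5MF was at 156, 129 and 145 CPM in GFPsh, 199, 133 and 168 CPM in FOSL1sh3 and 125, 112 and 125 CPM in FOSL1sh10. Its hairpin groups did not overlap, and their difference was close to the threshold (0.47, SE 0.152, adjusted p = 0.0505, edgeR). ATP5ME was at 83.2, 82.8 and 142 CPM in GFPsh, 115, 116 and 207 CPM in FOSL1sh3 and 101, 77.4 and 94.4 CPM in FOSL1sh10 (hairpin difference 0.69, SE 0.228, adjusted p = 0.0551, edgeR). Over the alternatives the hairpin difference was 0.29 to 0.60 for ATP5MF, called under 5 of 16, and 0.35 to 0.83 for ATP5ME, called under 7 of 16. ATP5MJ was at 14.1, 14.5 and 13.2 CPM in GFPsh, 21.0, 13.3 and 25.1 CPM in FOSL1sh3 and 27.2, 28.2 and 14.5 CPM in FOSL1sh10. FOSL1sh10 replicate 3 lay at the controls' upper edge, and the log2 fold change there of 0.73 (SE 0.249, adjusted p = 0.0977, edgeR) became 0.99 (adjusted p = 0.0245, edgeR) without it and was called under 4 of 16 alternatives. ATP5IF1, the inhibitor of the enzyme's reverse reaction, was at 553, 770 and 929 CPM in GFPsh and between 630 and 976 CPM in all hairpin libraries.

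Over all members, FOSL1sh10 leaned lower. Its median log2 fold change was -0.18 (all genes 0.00), and 66 of 83 members were negative (79.5%) where 49.8% of all genes were. In 19 of 83 (22.9%) all FOSL1sh10 libraries lay below all controls, where 13.0% of all genes tested did. At an unadjusted p under 0.05, 16 of 83 members were lower and 2 higher, beside 1199 lower and 1289 higher of 12814 genes. In FOSL1sh3 the median was 0.05 and 38 members were negative. Between the hairpins the median was 0.22, and in 15 of 83 (18.1%) every FOSL1sh3 library was above every FOSL1sh10 library, near the 14.8% of all genes. Lower counts may stand for less RNA per cell or for fewer cells with it, which cannot be told apart in bulk libraries.

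The lean was unequal between libraries and moved with other genes. The median log2 difference of members from the control mean was -0.07, -0.26 and -0.15 in FOSL1sh10 replicates 1, 2 and 3, and 0.14, 0.01 and -0.01 in FOSL1sh3. Ribosomal protein genes had medians of -0.10, -0.47 and -0.34 in FOSL1sh10, on the same side as the members and farther from 0 in each library. In FOSL1sh3 their medians were 0.21, 0.13 and 0.07, on the other side from the members in replicate 3. Their share of all counts was 27.3% ± 0.204 with FOSL1sh3 and 22.1% ± 1.90 with FOSL1sh10, against 25.4% ± 0.802 in the controls (SD, n = 3 each), and their part in the result was not tested. Without FOSL1sh10 replicate 2 the members' median in FOSL1sh10 was -0.09. With library totals in place of TMM it was -0.08, where the median of all genes was 0.11, and between the hairpins 0.04, where that of all genes was -0.17. The members' summed share of the library total was 2.82%, 2.85% and 2.87% in the controls, 2.95%, 2.86% and 2.74% with FOSL1sh3 and 2.85%, 2.53% and 2.65% with FOSL1sh10, so the ranges overlapped.

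**Figure D4:**
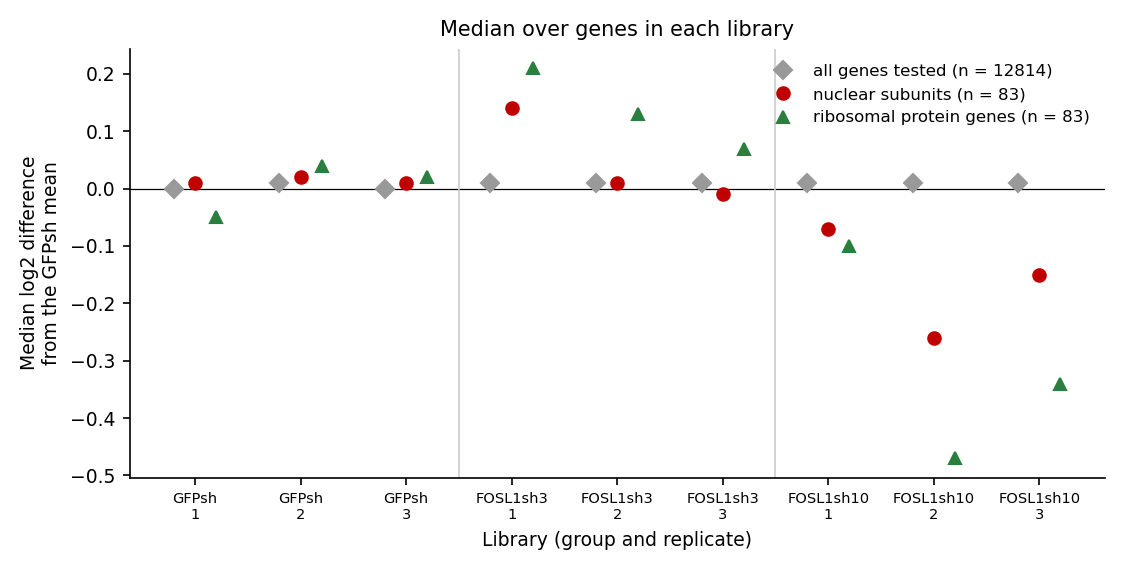
Median over genes of the log2 difference from the mean of the GFPsh libraries (y axis) in each library (x axis), for all 12814 genes tested, the 83 tested nuclear subunits and the 83 tested ribosomal protein genes. The subunits are at -0.07 to -0.26 in FOSL1sh10, and the ribosomal protein genes lie on the same side and farther from 0 in all 3 of these libraries.

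The other genes of the system were described from lists of genes that are not members. Subunits encoded on mitochondrial DNA are the partners of the nuclear ones, and of 13 tested 4 fell in FOSL1sh3 and 6 in FOSL1sh10, with none called higher, beside 10.9% and 5.28% of all genes called in either direction. MT-ND5, a proton-pumping subunit of complex I, was at 990 ± 98.4, 560 ± 38.3 and 465 ± 34.4 CPM in GFPsh, FOSL1sh3 and FOSL1sh10 (SD, n = 3 each) and fell by 0.82 and 1.09 on the log2 scale (adjusted p = 0.00122 and 7.43e-05, edgeR). MT-ND4L fell by 1.12 and 1.32 (adjusted p = 0.00191 and 0.000415, edgeR). The fall was not uniform, with log2 fold changes of -1.12 to 0.85 in FOSL1sh3 (median -0.08) and -1.32 to 0.47 in FOSL1sh10 (median -0.44). MT-ND4 and MT-CYB were at 0.02 and -0.04 in FOSL1sh3 but -1.12 and -1.15 in FOSL1sh10 (adjusted p = 0.028 and 0.0161, edgeR). The values near 0 in FOSL1sh3 join unlike libraries. MT-ND4 was at 1296, 473 and 437 CPM in FOSL1sh3 replicates 1, 2 and 3, with 689 to 782 CPM in GFPsh. MT-CYB was at 1527, 495 and 734 CPM there, with 911 to 988 CPM in GFPsh. For both genes replicate 1 lay above all controls and replicates 2 and 3 below them. Between the hairpins 3 of the 13 were called (MT-ND2, MT-ND4 and MT-CYB), all higher in FOSL1sh3, beside 12.7% of all genes called. The hairpin groups of MT-CYB overlapped, with 495 CPM in FOSL1sh3 replicate 2 and 516 CPM in FOSL1sh10 replicate 1. No nuclear complex I subunit was called in the same fit, and the difference between the 2 sets was not tested. The share of all counts in these 13 genes was 1.79% ± 0.119, 1.85% ± 0.326 and 1.66% ± 0.118.

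Of 52 assembly factors tested, 3 fell in FOSL1sh3 and none was called in FOSL1sh10, against 10.9% and 5.28% of all genes. ATPAF1, a chaperone for the ATP synthase head, was at 31.9 ± 3.56 CPM in GFPsh (SD, n = 3), at 17.6 to 18.6 CPM in FOSL1sh3 and at 31.0 to 32.9 CPM in FOSL1sh10, so FOSL1sh3 did not overlap with the others. It fell by 0.83 in FOSL1sh3 (adjusted p = 0.00303, edgeR) and differed between the hairpins by -0.83 (adjusted p = 0.00213, edgeR). COX11, which delivers copper to complex IV, fell by 0.64 in FOSL1sh3 (adjusted p = 0.00553), and CMC2 fell by 0.56 (adjusted p = 0.0169, edgeR).

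Of 17 regulators of mitochondrial biogenesis tested, 3 fell in FOSL1sh3 and none was called in FOSL1sh10, beside 10.9% and 5.28% of all genes. GABPB1, a subunit of the factor that binds the GABP site above, was at 5.94 ± 3.21 CPM with FOSL1sh3 and 13.1 ± 3.78 CPM with FOSL1sh10, against 19.9 ± 3.27 CPM in the controls (SD, n = 3 each). It fell by 1.75 in FOSL1sh3 (adjusted p = 0.002, edgeR), and the hairpins differed by -1.16 (adjusted p = 0.021, edgeR). TFAM and TFB2M, which serve transcription of mitochondrial DNA, fell by 0.61 and 0.67 in FOSL1sh3 (adjusted p = 0.0192 and 0.035, edgeR). Of 15 genes of electron carriers and ubiquinone synthesis, beside the same shares of all genes, 3 fell in FOSL1sh3 and none was called in FOSL1sh10: PDSS1 (log2 fold change -1.01, adjusted p = 0.0182), ETFA (-0.51, adjusted p = 0.0345) and CYCS, cytochrome c (-0.54, adjusted p = 0.0378, edgeR).

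Counting limits some members. Of the 91, 49 have named pseudogenes, 188 in all, with 3300 counts or 0.156% of the members' 2113905. The share was far larger for NDUFV2, with 138 counts beside 85 in its 1 named pseudogene. COX7B, called at 403 counts in all, has 4 named pseudogenes. Counting had no multi-mapping option, so pseudogene counts do not show how many reads such copies share with a member. In 8 members over 50% of the last 500 exon bases lie in exons of another gene, among them NDUFB2, NDUFC1, NDUFS7, ATP5F1E and ATP5MC2, and reads there cannot be assigned without strand. UQCRB at 4.71 CPM and NDUFA7 at 2.32 CPM in GFPsh were measured on few counts, and changes in them of the size seen in most members were not detectable at this depth.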

How the data were processed

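RNA of 9 EGI-1 libraries was counted per gene. The authors deposited raw counts, not normalized; per the file headers they come from featureCounts 1.6.0 over exons of GENCODE release 28 with no strand or multi-mapping option. Tools listed in the submitters' processing notes are FastQC 0.11.5, STAR 2.5.3a, edgeR and limma, with hg38 as the genome build. Per the labels, libraries were made by MARS-seq, a 3' tag protocol; whether reads were collapsed by molecular identifier is not given in the sources at hand, and counting floors cover counting error only.

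Groups came from the titles. Of 58381 genes, 57754 matched a current symbol and 58261 were in GENCODE release 29. Counts were fitted with edgeR 4.0.16 (R 4.3.3; default filter with minimum count 10 and minimum total 15, TMM, quasi-likelihood F test, 1 model of the 3 groups for all 9 libraries, no covariate), leaving 12814 genes with a common biological coefficient of variation of 16.4%. P-values were adjusted by Benjamini-Hochberg over all of them, and the SE is the size of the log2 change divided by the root of F. The script was tested on simulated data. Members were named where called, as the 3 smallest p per complex and comparison, by fixed roles and as paralogs; members that did not pass the test are given in part by counts and ranges, and the values of 1 member under this rule are not reported here. Members and lists were chosen with earlier results of these data known. Alternatives were library totals, DESeq2 1.42.0 size factors and Wald test, no filter, only the groups compared, the replicate number as a block, a GC content and length correction, and each library left out. A floor of 3 counts, the limit that a count of 0 allows, is 0.306 to 0.433 CPM.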

Additional observations from a re-analysis of the deposited data

Results flagged for a closer look

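Of the members, 4 of 83 (4.82%, beside 12.7% of all genes) differed between the hairpins by a test of the difference itself (edgeR, adjusted over all 12814 genes), each higher in FOSL1sh3 than in FOSL1sh10. The log2 differences were 1.35 for COX7A2L, 0.93 for COX6C, 0.57 for COX7C and 0.52 for UQCRC1. Each had all 3 FOSL1sh3 libraries above all 3 FOSL1sh10 libraries.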

How the results depend on the processing

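Of 47 named member results, 11 were called. Of these, 5 kept their call and direction under every alternative: COX7A2L in FOSL1sh10, for the mean and between the hairpins, and ATP5MC1 in FOSL1sh3 and for the mean. The mean for COX7A2L joined -1.63 in FOSL1sh10 with -0.28 in FOSL1sh3, where it was not called (adjusted p = 0.28, edgeR). Of the 36 uncalled, 17 were called under at least 1 alternative. The members called in FOSL1sh10, 2 in the fit reported, were 6 with the DESeq2 Wald test (7.23%, all genes 6.69%), 11 with no filter (12.8%, 3.30%), 10 with only the groups compared (12.0%, 8.98%) and 4 after the GC content and length correction (4.82%, 6.39%). Between the hairpins 4 became 9 with the DESeq2 Wald test (10.8%, 14.2%), 14 with no filter (16.3%, 6.41%) and 13 after that correction (15.7%, 12.0%), and for the mean 2 became 6 with no filter (6.98%, 3.59%); the cause was not tested. With each library left out, 1 to 5 members were called in FOSL1sh3, 1 to 6 in FOSL1sh10, 2 to 4 for the mean and 1 to 9 between the hairpins. All genes called fell too: the counts of 1 came beside 4.51% and 5.73% of all genes in FOSL1sh3 (without GFPsh replicate 1 or FOSL1sh3 replicate 3), 3.16% in FOSL1sh10 (without GFPsh replicate 3) and 5.37% between the hairpins (without FOSL1sh10 replicate 2). The highest, 5, 6 and 9, came beside 13.6%, 6.96% and 14.5%.

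With library totals, members had a median of -0.08 in FOSL1sh10 (all genes 0.11) and 0.04 between the hairpins (all genes -0.17). The 4 calls between the hairpins (4.82%, all genes 17.1%) were then 2 higher and 2 lower. Without ribosomal protein and mitochondrially encoded genes in the total, the members' share was 3.96% in GFPsh, 4.07% in FOSL1sh3 and 3.55% in FOSL1sh10; the cause was not tested. Signs turned in complex II. Between the hairpins SDHA and SDHD were both -0.07 with library totals, and SDHD was -0.15 without FOSL1sh3 replicate 2. SDHC was 0.03 after the GC content and length correction, 0.07 without FOSL1sh3 replicate 2 and 0.03 without FOSL1sh10 replicate 2. In FOSL1sh3, SDHD was 0.05 after that correction and SDHC -0.01 without FOSL1sh3 replicate 3. With each library left out, SDHC ran from -0.01 to 0.30 in FOSL1sh3 and from -0.24 to 0.07 between the hairpins, and SDHD from -0.15 to 0.21 between the hairpins.

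Correlations of deviations from the group mean ran from -0.116 to 0.183 between same-numbered libraries of different groups. Between libraries with other numbers they ran from -0.165 to 0.156. The ranges overlap, and values this small cannot settle whether replicate numbers pair the libraries. With the replicate block 9 members were called between the hairpins (10.8%, all genes 13.1%), and COX7B in FOSL1sh3 was 1.30 (adjusted p = 0.0502, edgeR).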
